A study of Mus musculus with 8 samples.

Results

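The smooth muscle contractile genes described here are *Acta2*, *Actg2*, *Tpm1*, *Tpm2*, *Tagln*, *Cnn1*, *Lmod1*, *Smtn*, *Myl9* and *Myh11*, taken from the count table by gene symbol. They are 10 of its 50600 genes. RNA-seq was performed on 2 mouse malignant peripheral nerve sheath tumor (MPNST) cell lines that differ in p53 status, to ask how loss of p53 changes the transcriptional response to MET inhibition. The parental line, NF1-MET, was isolated from a tumor of an *Nf1* fl/ko mouse that also carried a lox-stop-loxMET transgene (tg/+) and Plp-creERT (tg/+), in which a *Plp* promoter drives an inducible Cre. NF1-MET;sgP53 (sgP53 hereafter) was made from it with a lentiviral CRISPR-Cas9 guide against *Trp53*, so both lines share the *Nf1* and MET alleles, and each genotype is represented by 1 line. Both were grown with 10% FBS and received either vehicle (DMSO) or 100 nM capmatinib, a MET kinase inhibitor, for 24 h, giving 4 groups with 2 libraries each. The columns of the parental line carry a prefix that may stand for an empty vector, which the labels do not spell out.

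Smooth muscle contracts when myosin, built from heavy chains such as the *Myh11* product and regulatory light chains such as the *Myl9* product, pulls on actin filaments. Tropomyosins, calponin, transgelin, leiomodin and smoothelin bind or build those filaments. Many of these genes are transcribed through serum response factor (SRF), which binds CArG boxes together with myocardin or the related factors MRTF-A and MRTF-B, and several of them are also switched on in myofibroblasts and in other cells that assemble stress fibers. They are not specific to vascular or visceral muscle when taken one at a time.

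The 8 libraries held 30116810 to 42781371 counts. *Gm42418*, a transcript that overlaps ribosomal RNA sequence, took between 1.11% and 13.1% of them. *Trp53* was at 182 and 193 CPM (counts divided by the library total, itself scaled by TMM factors to balance composition, and multiplied by 1e+06) in NF1-MET vehicle libraries and at 97.5 and 100 CPM in sgP53 vehicle libraries. The Schwann cell genes *Sox10* and *S100b* did not reach 0.5 CPM in any library. The 10 Schwann cell markers read, mainly *Pmp22* and *Egr2*, summed to 41.8 to 51.2 CPM with vehicle and 180 to 189 CPM with capmatinib. Expression was read from whole cultures, in which fewer cells of a type and less RNA per cell cannot be told apart.

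RefSeq promoter windows (GRCm38.p6) were found for 7 of the 10 genes: *Acta2*, *Myl9*, *Cnn1*, *Lmod1*, *Smtn*, *Tpm1* and *Tpm2*. They were searched for the CArG box, CC followed by 6 A or T bases and GG, and for a CArG-like box in which 1 of the 6 is G or C. These patterns read the same on both strands. One or the other was present within the 250 bases before the start of *Acta2* and *Myl9*, 2 of the 7 genes, against 8.59% of 32851 promoter windows of the same length. The 2 windows that hold them are shown, with CArG and CArG-like boxes in capitals. All 7 genes rose with capmatinib, and the 2 that rose most, *Lmod1* and *Cnn1*, held neither box in their windows. The first lies at chr19:34255374-34255623 (minus strand) and the second at chr2:156775214-156775463 (plus strand).
Acta2: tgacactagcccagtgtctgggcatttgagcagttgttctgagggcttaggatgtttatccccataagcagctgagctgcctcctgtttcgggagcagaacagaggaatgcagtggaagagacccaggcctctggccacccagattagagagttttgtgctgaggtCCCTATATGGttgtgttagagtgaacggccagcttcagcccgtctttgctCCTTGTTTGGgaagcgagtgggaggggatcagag
Myl9: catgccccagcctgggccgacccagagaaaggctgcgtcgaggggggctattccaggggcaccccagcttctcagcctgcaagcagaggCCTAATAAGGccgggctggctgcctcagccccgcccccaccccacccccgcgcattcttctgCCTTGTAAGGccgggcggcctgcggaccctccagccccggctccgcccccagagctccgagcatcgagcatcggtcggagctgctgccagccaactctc
*Myl9* held a CArG box at -161 to -152 and a CArG-like box at -99 to -90, counted back from the RefSeq start. For *Acta2* and *Myl9* that start lies inside the gene span given below, so each window overlaps the span. *Acta2* held 2 CArG-like boxes, at -84 to -75 and at -34 to -25. The MCAT element bound by TEAD factors (CATTCC, or GGAATG on the other strand) was present in 4 of the 7 windows, *Acta2*, *Lmod1*, *Smtn* and *Tpm1*, against 12.6% of all windows. These are matches of letters, and binding was not measured.

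Of the actins, *Acta2* reached the highest level of the 10 genes with capmatinib. *Acta2* (ENSMUSG00000035783, chromosome 19, 34241090 to 34255590, mm10) encodes smooth muscle alpha actin. It stood at 408 and 416 CPM in NF1-MET vehicle libraries and at 7559 and 7484 CPM after capmatinib. In sgP53 cells it stood at 891 and 889 CPM with vehicle and at 8092 and 8188 CPM with capmatinib. The groups did not overlap, and the gene gained 18.05-fold in NF1-MET (log2 fold change 4.17, SE 0.017, adjusted p = 1.28e-47) and 9.14-fold in sgP53 (log2 fold change 3.19, SE 0.020, adjusted p = 1.78e-29). Of its 2146 windows of 50 bases in the annotated transcripts, 7 were shared with another gene, *Actg1* or actin pseudogenes.

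*Actg2* (ENSMUSG00000059430, chromosome 6, 83512905 to 83536265) encodes the gamma actin of visceral smooth muscle. NF1-MET cells held 4.93 and 4.56 CPM with vehicle and 144 and 143 CPM with capmatinib. The sgP53 libraries gave 7.42 and 7.09 CPM with vehicle and 133 and 138 CPM with capmatinib. This actin therefore reached a similar level with the drug in both lines, from a lower start in NF1-MET, and rose 29.8-fold (log2 fold change 4.90, SE 0.051) and 18.7-fold (4.23, SE 0.044).

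The tropomyosins, which lie along the actin filament and are expressed in many cell types, started high and changed less. *Tpm1* (ENSMUSG00000032366, chromosome 9, 67022590 to 67049406) went from 2313 and 2259 CPM to 6030 and 6018 CPM in NF1-MET, and from 2522 and 2516 CPM to 5941 and 5871 CPM in sgP53. *Tpm2* (ENSMUSG00000028464, chromosome 4, 43514711 to 43523765) went from 182 and 180 CPM to 635 and 623 CPM in NF1-MET, and from 230 and 233 CPM to 699 and 685 CPM in sgP53. No vehicle library of either gene reached the level of any capmatinib library. The increases were 2.61-fold and 2.34-fold for *Tpm1* and 3.43-fold and 2.99-fold for *Tpm2*, NF1-MET first.

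Genes of proteins that bind or extend the thin filament differed widely in their responses. *Tagln* (ENSMUSG00000032085, chromosome 9, 45929619 to 45936058), which encodes transgelin, an actin-bundling protein of the calponin family, was at 34.2 and 36.3 CPM in NF1-MET vehicle and at 785 and 782 CPM with capmatinib. In sgP53 it was at 124 and 130 CPM with vehicle and at 949 and 950 CPM with capmatinib. The rise was 22.0-fold (log2 fold change 4.46, SE 0.029) in NF1-MET and 7.47-fold (2.90, SE 0.030) in sgP53. The antisense gene *Gm48529* covers 62.4% of the exonic length of *Tagln*, and the strand setting of the counting is not given in the sources used here. Reads of the pair might be mixed or left uncounted, which the level of *Gm48529* cannot settle. *Gm48529* itself was counted at 2.18 to 3.05 CPM with vehicle and at 9.18 to 12.3 CPM with capmatinib, far below *Tagln*.

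*Cnn1* (ENSMUSG00000001349, chromosome 9, 22099216 to 22109630) encodes calponin 1, which restrains actomyosin activity in differentiated smooth muscle. It was nearly silent in NF1-MET vehicle libraries, at 1.598 and 2.006 CPM, and reached 153 CPM in each capmatinib library. In sgP53 cells the vehicle libraries held 7.36 and 6.69 CPM, above both NF1-MET vehicle libraries, and the capmatinib libraries 196 and 188 CPM. Its fold changes of 83.2 (log2 6.38, SE 0.061) and 27.4 (log2 4.78, SE 0.050) were among the highest in the transcriptome, at the 99.9th and 99.7th percentiles of all genes tested.

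*Lmod1* (ENSMUSG00000048096, chromosome 1, 135324807 to 135368065) encodes leiomodin 1, which nucleates actin filaments in smooth muscle. Vehicle libraries held 1.29 and 1.00 CPM (NF1-MET) and 2.18 and 2.93 CPM (sgP53), and capmatinib libraries 100 and 97.5 CPM (NF1-MET) and 103 and 102 CPM (sgP53). It rose 85.3-fold in NF1-MET (log2 fold change 6.41, SE 0.077) and 39.4-fold in sgP53 (log2 fold change 5.30, SE 0.067). *Smtn* (ENSMUSG00000020439, chromosome 11, 3517523 to 3540612), for smoothelin, an actin-associated cytoskeletal protein, changed least, from 106 and 102 CPM to 164 and 167 CPM in NF1-MET and from 107 and 118 CPM to 159 and 168 CPM in sgP53. Its increases of 1.57-fold and 1.46-fold still separated the groups and passed the test.

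Of the thick filament, *Myl9* (ENSMUSG00000067818, chromosome 2, 156775420 to 156781658), whose product is the regulatory light chain phosphorylated by myosin light chain kinase, was at 7.99 and 8.43 CPM in NF1-MET vehicle and at 440 and 425 CPM with capmatinib. The sgP53 values were 29.7 and 29.0 CPM with vehicle and 536 and 530 CPM with capmatinib. *Myl9* thus rose 52.0-fold (log2 fold change 5.70, SE 0.038) in NF1-MET and 18.2-fold (4.18, SE 0.035) in sgP53.

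*Myh11* (ENSMUSG00000018830, chromosome 16, 14194535 to 14291372), the smooth muscle myosin heavy chain and the most restricted marker of the lineage in the list, stayed low in every group. It had 1 and 3 counts in NF1-MET vehicle, 87 and 120 with capmatinib, 1 and 4 in sgP53 vehicle, and 290 and 327 with capmatinib. Even the highest library stood at 9.01 CPM. Of the 7644 windows of 50 bases in *Myh11* transcripts, 26 were shared with another gene, *Myh9* or *Myh10*. The ratio of capmatinib to vehicle was 59.7 in NF1-MET (95% counting interval 23.0 to 221) and 133 in sgP53 (56.7 to 411), with intervals that overlap widely because so few vehicle reads were seen. Such intervals cover counting error only. Leaving out 1 library moved the log2 fold change of *Myh11* to between 5.30 and 6.64 in NF1-MET and to between 6.48 and 8.05 in sgP53. *Myh11* passed the filter on low counts (10 counts or more in 2 or more libraries) only through its capmatinib libraries, whereas the other 9 genes had 40 counts or more in each library.

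**Figure D1:**
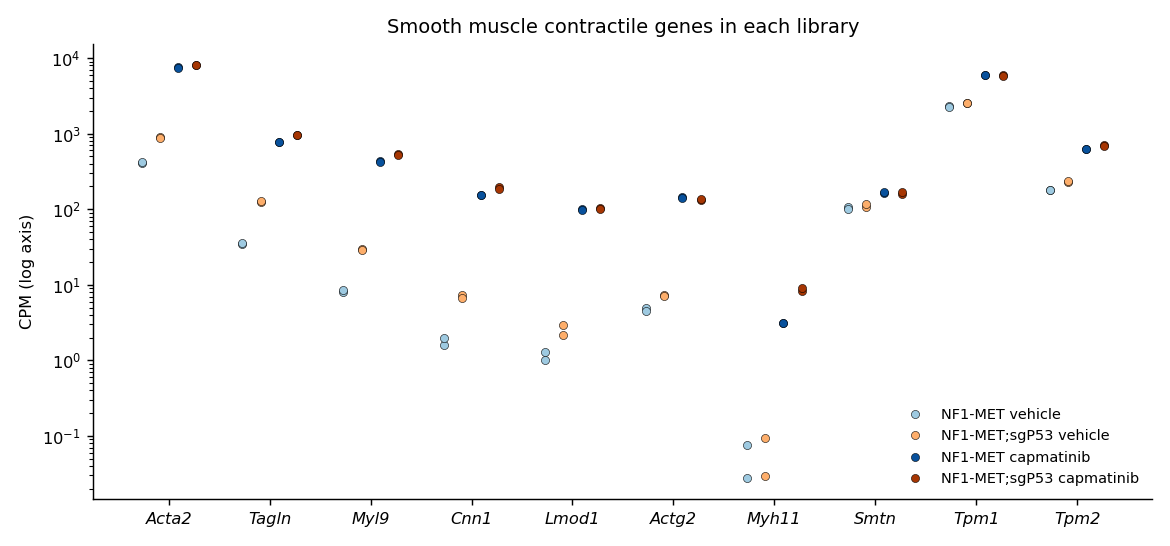
CPM of the 10 genes (horizontal axis) in each of the 8 libraries on a log axis, with 1 point per library and colors for the 4 groups. For every gene the capmatinib libraries lie above the vehicle libraries of the same line, by the smallest margin for *Smtn* and by the largest for *Lmod1*, *Cnn1* and *Myh11*, and *Myh11* remains under 10 CPM.

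Capmatinib therefore raised all 10 genes in NF1-MET cells, against 35.5% of the 14496 genes tested that were called higher in that comparison, and raised all 10 in sgP53 cells, against 34.2% of 14497 genes (edgeR quasi-likelihood test with Benjamini-Hochberg adjustment, threshold 0.05). No member was called lower, where 34.7% and 33.4% of all genes were. The libraries of the groups did not overlap for any of the 10 genes in either line, with the capmatinib libraries higher, as was the case for 43.1% of all genes in NF1-MET and 41.9% in sgP53. *Myh11* passed the filter only through the libraries in which it was high, so its direction was fixed, and under the stricter filter, which left it out, 9 of 9 genes were called higher in each line. The largest adjusted p among the 10 genes was 1.26e-14 in NF1-MET, for *Myh11*, and 7.95e-11 in sgP53, for *Smtn*. The median log2 fold change of the 10 genes was 4.68 in NF1-MET and 3.69 in sgP53, while the median over all genes tested was 0.0020 and 0.0049. Under the stricter filter the medians of the 9 genes were 4.47 and 3.20. The summed level of the 10 genes rose from 3059 and 3010 CPM to 16014 and 15896 CPM in NF1-MET and from 3922 and 3932 CPM to 16817 and 16829 CPM in sgP53, and these sums are mostly *Acta2* and *Tpm1*.

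**Figure D2:**
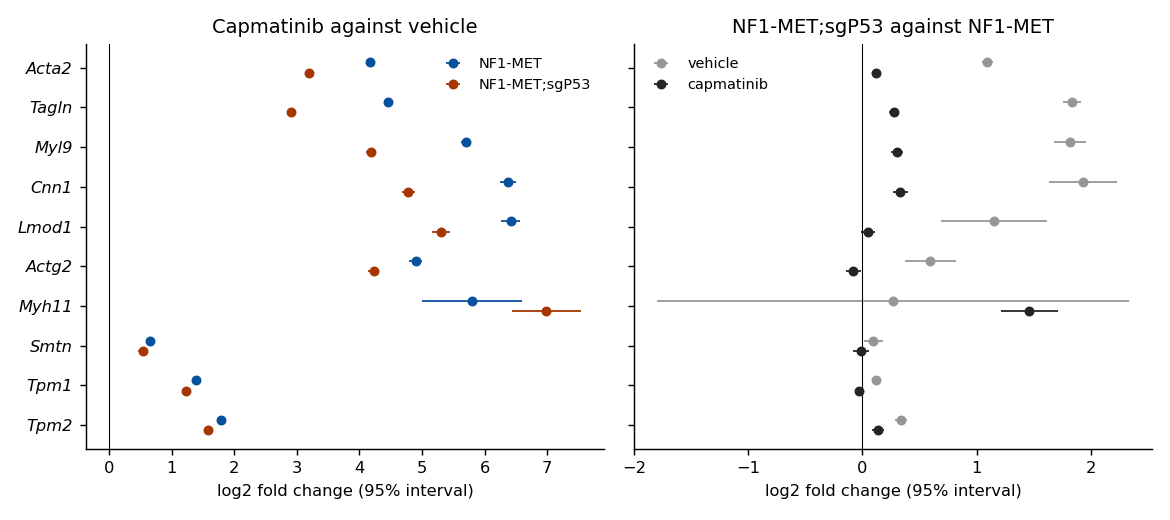
Log2 fold changes with 95% intervals from edgeR for capmatinib against vehicle in each line (left) and for sgP53 against NF1-MET under each treatment (right), 2 libraries per group. On the left all 20 points lie above 0 and the NF1-MET point is to the right for each gene except *Myh11*, and on the right the vehicle differences of *Acta2*, *Tagln*, *Myl9*, *Cnn1* and *Lmod1*, from 1.09 to 1.93, shrink to 0.05 to 0.33 with capmatinib.

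With vehicle, the sgP53 line already expressed most of the 10 genes at a higher level than the parental line. The test called 8 of the 10 genes higher in sgP53 vehicle libraries, against 10.9% of 14484 genes, and none lower, against 12.3%. Fibroblast and myofibroblast markers were mostly higher there as well (7 of 9 tested). The libraries did not overlap for 9 of the 10 genes, each higher in sgP53, against 34.4% of all genes. The differences were largest for *Cnn1* (3.81-fold, log2 fold change 1.93, SE 0.14), *Tagln* (3.56-fold, 1.83, SE 0.037) and *Myl9* (3.52-fold, 1.82, SE 0.068). They were smaller for *Lmod1* (2.22-fold) and *Acta2* (2.13-fold), and smaller again for *Actg2* (1.51-fold), *Tpm2* (1.26-fold) and *Tpm1* (1.09-fold). *Smtn* (log2 fold change 0.09, 95% interval 0.01 to 0.18, adjusted p = 0.0963) and *Myh11* (0.27, 95% interval -1.79 to 2.33, adjusted p = 0.889) did not pass. The median of the 10 log2 fold changes was 0.84, beside 0.0024 over all genes. *Smtn* passed when sgP53 vehicle replicate 1 was left out (0.16, adjusted p = 0.00147), and *Myh11* turned to -0.23 without NF1-MET vehicle replicate 1 and to -0.80 without sgP53 vehicle replicate 2. The call for *Tpm1* was lost when libraries were scaled by their totals in place of TMM (log2 fold change 0.18, adjusted p = 0.0954).

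With capmatinib, the lines differed little. In the treated libraries 6 of the 10 genes were called higher in sgP53 and none lower, against 5.94% of 14481 genes called higher and 6.34% called lower. Libraries did not overlap for 7 genes that were higher in sgP53, against 25.7% of all genes, and for 2 that were lower, *Actg2* and *Tpm1*, against 26.6%. *Myh11* stood apart, at 8.23 and 9.01 CPM in sgP53 and 3.14 and 3.12 CPM in NF1-MET, a 2.75-fold difference (log2 fold change 1.46, SE 0.12, adjusted p = 1.14e-07) with no overlap. The other called genes were *Cnn1* (1.26-fold), *Myl9* (1.23-fold), *Tagln* (1.21-fold), *Tpm2* (1.10-fold) and *Acta2* (1.08-fold). *Lmod1* (log2 fold change 0.05, 95% interval -0.01 to 0.11), *Actg2* (-0.08, -0.15 to -0.01), *Smtn* (-0.02, -0.09 to 0.05) and *Tpm1* (-0.03, -0.05 to -0.0035) were not called, although *Actg2* passed without sgP53 capmatinib replicate 2 (-0.10, adjusted p = 0.0335), the library with the least *Gm42418*. The median of the 10 was 0.13, beside -0.0010 over all genes. Scaling by library totals shifted the median of all genes to 0.11 and left 4 genes called, since *Acta2* (adjusted p = 0.198) and *Tpm2* (0.141) no longer passed.

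**Figure D3:**
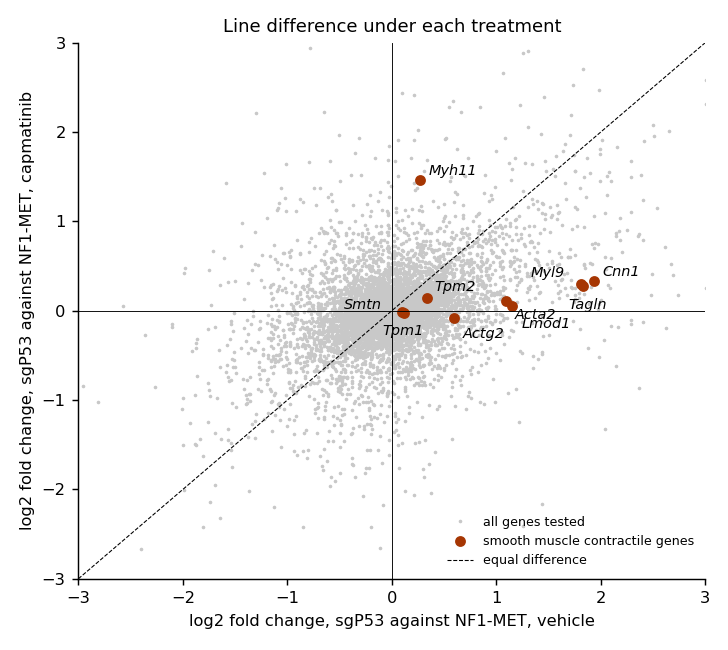
Difference between lines (log2 fold change, sgP53 against NF1-MET) with vehicle (horizontal axis) and with capmatinib (vertical axis) for all genes tested in both comparisons (gray) and the smooth muscle contractile genes (brown). The axes end at 3 in each direction and leave out 44 of 14468 genes. Most brown points lie to the right of 0 and below the dashed line of equal difference, and *Myh11* alone lies well above it.

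The line by capmatinib interaction, fitted over all 8 libraries, compares the 2 responses directly. It was called for 8 of the 10 genes, all with the smaller log2 response in sgP53, against 5.86% of 14497 genes called in that direction and 3.85% in the other. With library totals 6 of the 10 remained called, and 123 genes in all against 849. The fold response was 3.07 times smaller in sgP53 for *Cnn1* (interaction -1.62, SE 0.11), 2.98 times for *Tagln* (-1.57, SE 0.041), 2.89 times for *Myl9* (-1.53, SE 0.051), 2.19 times for *Lmod1* (-1.13, SE 0.17), 1.997 times for *Acta2* (-0.998, SE 0.021) and 1.61 times for *Actg2* (-0.69, SE 0.080). For *Tpm2* (-0.22) and *Tpm1* (-0.17) the interaction was small and was lost with library totals (adjusted p = 0.746 and 0.876). *Smtn* (-0.13, adjusted p = 0.149) and *Myh11* (1.17, 95% interval -0.93 to 3.28, adjusted p = 0.561) did not pass. The median interaction over the 10 genes was -0.84, beside -0.03 over all genes. The interaction is by construction the line difference with capmatinib minus that with vehicle, and these comparisons share libraries, so it is no separate evidence for either.

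On the linear scale the picture differed. The gain of *Acta2*, capmatinib minus vehicle, was 7110 ± 53.6 CPM in NF1-MET and 7250 ± 67.9 CPM in sgP53 (the error is the square root of the summed variances of the vehicle and capmatinib libraries, 2 per group), a ratio of 1.02 ± 0.012. *Lmod1* gained 97.8 ± 1.97 CPM and 99.7 ± 1.07 CPM. The ratio of gains was 1.10 for *Tagln*, 1.19 for *Myl9*, 1.23 for *Cnn1*, 1.03 for *Tpm2*, 0.93 for *Actg2*, 0.91 for *Tpm1* and 0.84 ± 0.17 for *Smtn*, and 2.78 ± 0.18 for *Myh11*. In CPM, then, 7 of the 10 genes gained at least slightly more in sgP53 and 3 gained less, while on the log2 scale 8 of 10 were called as responding less. The ratios of *Lmod1* (1.02 ± 0.023), *Tpm2* (1.03 ± 0.029) and *Smtn* lay within their error of 1, so their side is not resolved. These ratios were chosen after the values were seen, carry no test, and move with the scaling, to between 1.00 and 3.02 with library totals for the 9 genes other than *Smtn*.

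Per length of exon, the order of the genes changed with treatment. In NF1-MET vehicle libraries *Tpm1* led at 353 ± 5.80 CPM per kb (SD, n = 2), above *Acta2* at 188 ± 2.31. With capmatinib *Acta2* led at 3425 ± 24.3 CPM per kb, above *Tpm1* at 929 ± 1.27, *Tagln* at 394 ± 1.15 and *Myl9* at 372 ± 8.62. In sgP53 cells *Acta2* was already first with vehicle, at 405 ± 0.65 CPM per kb against 388 ± 0.66 for *Tpm1*, and it led with capmatinib at 3707 ± 30.9. That first place with vehicle depends on the length, which joined all annotated exons of a gene (2196 bases for *Acta2*, 6485 for *Tpm1*). Without division by length, *Tpm1* was higher in sgP53 vehicle, at 2519 CPM against 890 CPM for *Acta2*. *Myh11* was last in all 4 groups, from 0.0068 to 1.13 CPM per kb. Neighbors in the order did not overlap between libraries in any group, except *Smtn* and *Myl9* in sgP53 vehicle (25.7 ± 1.74 and 25.2 ± 0.42 CPM per kb).

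The genes were also set against other members of their own protein families, by counts per length. *Acta2* and *Actg2* together made up 7.96 ± 0.067% of the 6 actins in NF1-MET vehicle and 46.9 ± 0.10% with capmatinib, and 15.0 ± 0.49% and 49.9 ± 0.22% in sgP53. With capmatinib *Acta2* stood at 3425 CPM per kb beside 3465 for cytoplasmic *Actb* in NF1-MET, and at 3707 beside 3304 in sgP53. *Actb* rose as well, by 0.87 on the log2 scale in NF1-MET. The share of *Tagln* among transgelins moved from 4.93 ± 0.25% to 53.1 ± 0.16% in NF1-MET and from 15.3 ± 0.51% to 58.0 ± 0.53% in sgP53, while *Tagln2* stayed between 341 and 354 CPM per kb in all groups.

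*Cnn1* remained a small part of the calponins, at 0.25 ± 0.036% rising to 6.99 ± 0.11% in NF1-MET and 0.81 ± 0.044% rising to 8.71 ± 0.16% in sgP53. *Tpm1* and *Tpm2* went from 44.3 ± 0.43% to 57.4 ± 0.32% of tropomyosins in NF1-MET and from 45.4 ± 0.13% to 57.1 ± 0.18% in sgP53. *Myh11* did not exceed 0.29 ± 0.017% of the myosin heavy chains with *Myh9*, *Myh10* and *Myh14*, the group mean in sgP53 with capmatinib. The filament genes were thus divided: with capmatinib the actin and transgelin pools were about equally shared between smooth muscle and other forms, and the heavy chain pool was almost entirely *Myh9*. These shares carry no test.

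**Figure D4:**
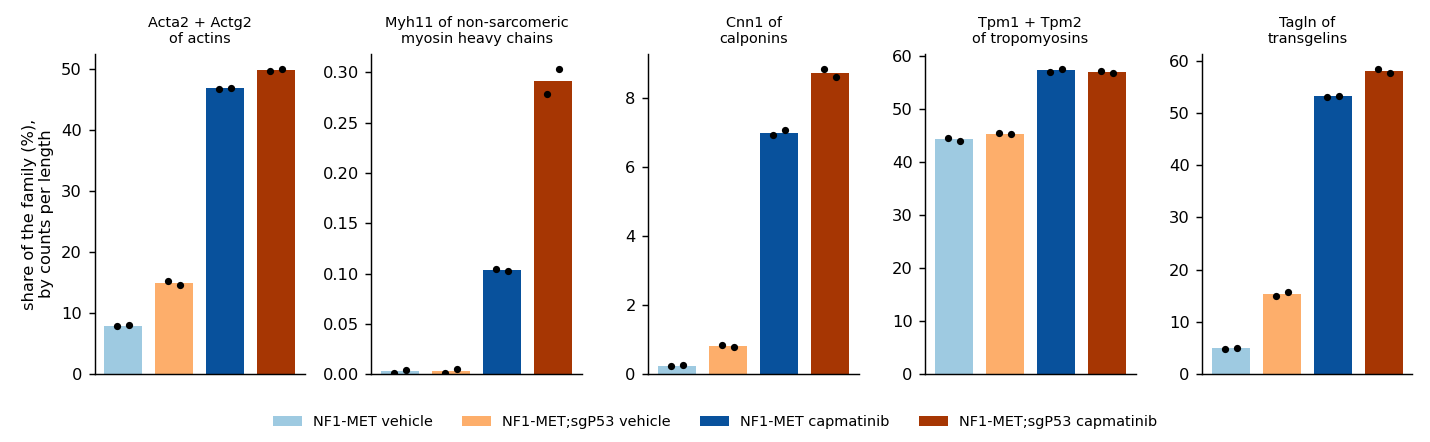
Share (%) of each protein family, by counts per length, that came from the smooth muscle genes, with bars for the mean of 2 libraries, points for the libraries and colors for the 4 groups, and a vertical axis of its own in each panel. The actin and transgelin shares approach or pass 50% with capmatinib, the tropomyosin share rises from about 45% to 57%, and the *Myh11* share stays under 0.31%.

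Other genes of the pathway, listed by role, were tested in the same fits. The lists were chosen with earlier results of these data known, so their counts are descriptions. Of 28 further smooth muscle structural and channel genes, 23 could be tested, and all 23 were called higher with capmatinib in NF1-MET and in sgP53, with medians of 1.78 and 1.53, against 35.5% and 34.2% of all genes. *Aoc3* and *Kcnmb1*, with 0 to 8 counts in each vehicle library, passed the filter only through capmatinib libraries, which fixed their direction, and under the stricter filter, which left them out, 21 of 21 were called higher in each line. *Itga8*, an integrin chain of smooth muscle and mesenchyme, rose by 4.10 (SE 0.036) and 4.51 (SE 0.048) on the log2 scale. *Mcam*, an adhesion molecule of smooth muscle and pericytes, rose by 3.37 (SE 0.051) and 2.58 (SE 0.045), and *Ldb3*, a Z-disc protein gene, by 3.70 (SE 0.094) and 3.14 (SE 0.084). Among those not tested, *Pln* had no count in any library and *Des*, the muscle intermediate filament gene, had 7 counts, all in sgP53 capmatinib libraries. Between the lines, 13 of the 23 tested genes were higher and 4 lower in sgP53 with vehicle, against 10.9% and 12.3% of all genes. With capmatinib 5 were higher and 8 lower, against 5.94% and 6.34%, and with library totals 3 were higher and 1 lower.

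Of 18 genes that control contraction, 17 were tested, and 12 were higher and 1 lower in NF1-MET and 13 higher and 2 lower in sgP53 (medians 0.50 and 0.47), where 35.5% and 34.2% of all genes were higher and 34.7% and 33.4% lower. With library totals 5 of these genes were lower in NF1-MET and 1 in sgP53, and 1 was lower in sgP53 also with other filters on low counts and without sgP53 vehicle replicate 1 or sgP53 capmatinib replicate 1. *Mylk*, the kinase that phosphorylates the *Myl9* product, rose from 0.91 ± 0.042 to 17.8 ± 0.63 CPM in NF1-MET and from 2.01 ± 0.41 to 28.5 ± 0.39 CPM in sgP53. *Ppp1r12b*, a regulatory subunit of myosin phosphatase, rose by 2.15 and 1.80 on the log2 scale, and *Prkg1*, the cGMP-dependent kinase that promotes relaxation, by 1.42 and 1.89. *Ppp1cb*, the catalytic subunit of the phosphatase, did not pass in either line, at 259 ± 3.32 and 262 ± 9.40 CPM in NF1-MET and 265 ± 3.24 and 270.4 ± 4.72 CPM in sgP53, vehicle first. Of 24 paralogues of the contractile genes, 16 were tested, 13 were higher and 1, *Tpm3*, was lower in each line, with medians of 0.69 and 0.61, against the same shares of all genes. With library totals 2 were lower in NF1-MET. *Acta1*, skeletal alpha actin, rose by 4.16 and 3.87 but reached only 11.5 ± 0.17 and 16.02 ± 1.31 CPM.

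Among 20 transcriptional regulators, 18 were tested, and 10 were higher and 5 lower in NF1-MET and 12 higher and 4 lower in sgP53 (medians 0.12 and 0.22), against 35.5% and 34.2% of all genes called higher and 34.7% and 33.4% lower. With library totals 6 were higher in NF1-MET and 7 in sgP53. *Srf* went from 70.4 ± 0.77 to 105 ± 0.27 CPM in NF1-MET (log2 fold change 0.56, SE 0.031) and from 83.9 ± 2.60 to 100 ± 1.46 CPM in sgP53 (0.26, SE 0.036). The *Srf* interaction was -0.32 (SE 0.046, adjusted p = 2.89e-05), in the direction of the contractile genes, but with library totals neither the rise in sgP53 (0.14, adjusted p = 0.269) nor the interaction (-0.24, adjusted p = 0.382) passed. *Mrtfa* rose by 0.39 and 0.47 and *Mrtfb* by 0.52 and 0.36. *Myocd*, which encodes the myocardin coactivator of differentiated smooth muscle, had no count in 8 libraries, which allows up to 0.010 CPM over the series, at 3 counts of the total. *Fhl1* rose most (2.502 and 2.218), and *Klf5*, a factor of proliferating smooth muscle (-0.86 and -0.78), and *Elk3*, an ETS factor that can partner SRF (-0.95 and -0.81), fell.

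**Figure D5:**
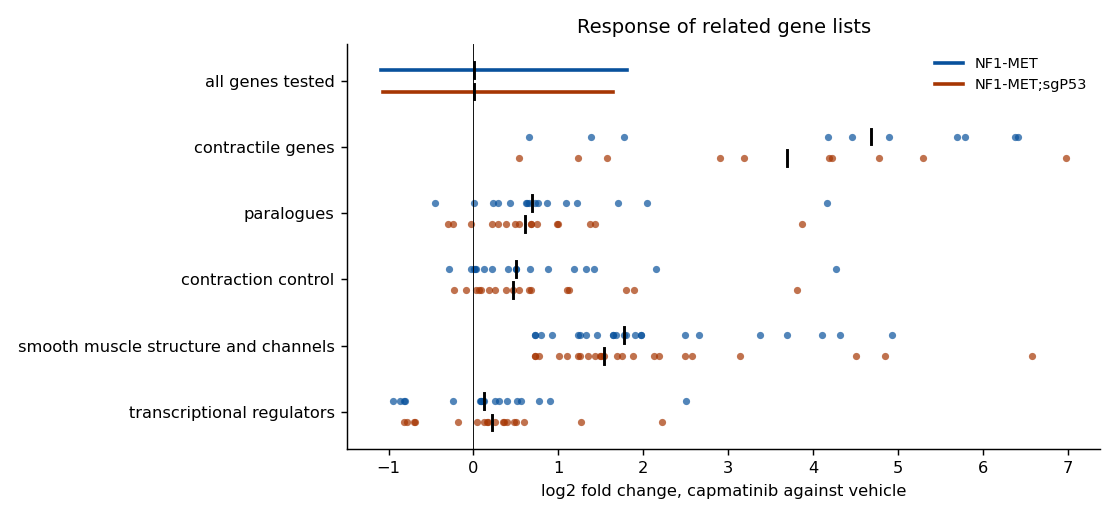
Log2 fold change with capmatinib in NF1-MET (blue) and sgP53 (brown) for the tested genes of each list (points), with the median as a black bar, beside the 5th to 95th percentile of all genes tested (lines). The contractile genes have medians of 4.68 and 3.69, the other smooth muscle structural genes all lie above 0, and the transcriptional regulators lie on both sides of it.

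Marker genes of other cell types were read in the same libraries. The summed level of 10 fibroblast and myofibroblast markers was 7638 to 7723 CPM in NF1-MET vehicle and 32437 to 32911 CPM with capmatinib, and 9013 to 9132 CPM and 32179 to 32273 CPM in sgP53. It moved with the contractile genes: 6 of the 9 tested were higher and 2 lower with capmatinib in each line, against 35.5% and 34.2% of all genes higher and 34.7% and 33.4% lower. The genes that fell were *Pdgfra* in both lines (-0.38 and -0.32), *Fap* in NF1-MET (-1.05) and *Dpt* in sgP53 (-1.26), and the rises were led by *Postn* (log2 fold changes 4.95 and 4.37), *Lox* (4.08 and 3.43) and *Col1a1* (2.64 and 2.21), whereas *Lum* had at most 1 count and *Dpt* stayed under 0.5 CPM. Of 8 pericyte markers 3 were tested and all 3 were called higher in each line, against 35.5% and 34.2% of all genes, *Notch3* by 3.14 and 2.68, *Pdgfrb* by 1.29 and 1.004 and *Cspg4* by 0.47 and 0.63, and *Kcnj8*, *Vtn* and *Higd1b* had no count. Between the lines, 7 of the 9 fibroblast and myofibroblast markers tested were higher and 1 lower in sgP53 with vehicle, against 10.9% and 12.3% of all genes, with *Postn* at 0.87 and *Lox* at 0.75. Their interaction was lower in sgP53 for 5 (*Lox* -0.67, *Postn* -0.59) and higher for 1, against 5.86% and 3.85% of all genes. The part of these markers in the differences of the contractile genes was not tested.

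Skeletal muscle markers summed to 0.47 to 1.49 CPM over the 8 libraries, and *Myod1*, *Myog*, *Myf5* and *Myf6* had no count. Cardiac markers summed to 22.2 to 23.3 CPM in NF1-MET vehicle and 2.68 to 3.22 CPM with capmatinib, and to 10.6 to 11.3 CPM and 2.64 to 2.73 CPM in sgP53, mostly *Nppb*, and *Nkx2-5* and *Myh6* had no count. Endothelial markers summed to 0.25 to 3.57 CPM, with *Tie1* at 0. The 1 endothelial marker tested, *Erg*, was called higher in both lines (log2 fold changes 4.99 and 4.86), reaching 1.77 ± 0.36 and 3.11 ± 0.26 CPM, but with 1 to 4 counts in each vehicle library it too passed the filter only through capmatinib libraries. Macrophage markers summed to 6.13 to 12.9 CPM, mostly *Cd14*, with *Adgre1* at 0, and of the 3 tested *Csf1r* was higher (1.88 and 1.14) and *Cd14* and *Cd68* were lower in each line. Schwann cell markers summed to 41.8 to 51.2 CPM with vehicle and 180 to 189 CPM with capmatinib, in both cases mainly *Pmp22* and *Egr2*. Of the 6 tested, 4 were higher in each line and *S100b* was lower in sgP53 (-1.95), against 35.5% and 34.2% of all genes higher and 33.4% lower in sgP53, and 7 of the 10 were under 1 CPM in each group. Their part in the change of the contractile genes was not tested either.

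Likeness of pattern was measured as the Euclidean distance between mean log2 CPM in the 4 groups, centered on their mean, over 9062 genes with at least 10 CPM in some group. The genes nearest to the median pattern of the 10 were *Mfap5* (distance 0.22), *Col11a1* (0.27), *Mylk* (0.38), *Adamts5* (0.39) and *Txnip* (0.40). *Acta2* was nearest to *Txnip* (0.17), *Cbr2* (0.25) and *Lox* (0.25), and *Myl9* to *Ptx3* (0.24), *Cyp1b1* (0.36) and *Fmod* (0.48). *Cnn1* was nearest to *Ogn* (0.21) and *Actg2* to *Mustn1* (0.22). *Myh11* had no close match, with *Aoc3*, the vascular adhesion protein gene of smooth muscle, nearest at 0.69. With 4 group means a short distance is easily reached, and the distances are given as a description.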

How the data were processed

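RNA-seq libraries from poly(A) RNA were sequenced by the authors, trimmed (Trim Galore 0.4.2) and aligned to mm10 with STAR 2.5.2b, and the deposited table holds raw counts per gene. The strand setting and annotation release are not given in the sources used here, and GENCODE M21 supplied positions and lengths. Each contrast was fitted on its own libraries with edgeR 4.0.16 (R 4.3.3), with TMM scaling, the quasi-likelihood F-test, adjusted p (Benjamini-Hochberg, all tested genes) under 0.05, and the interaction on 8 libraries. Genes needed at least 10 counts in at least 2 of 8 libraries and a count in 2 libraries of the contrast, which left 14497 of 25362 detected genes and removed 0.04% of counts. Scripts were tested on simulated data.

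Members and lists were chosen with earlier results of these data known. Named genes were the 10 members, *Srf*, *Myocd*, *Mrtfa* and *Mrtfb*, and up to 4 genes per list and comparison with the largest called change at 10 CPM or more, the 5 genes nearest in pattern, *Trp53* and *Gm42418*. *Tpm3*, *Des*, *Pln*, *Tagln2*, *Actb*, *Gm48529*, *Ppp1cb*, *Kcnmb1*, *Fap*, *Dpt*, *Pdgfra*, *Erg*, *Notch3*, *Csf1r*, *Cd14*, *Cd68* and markers at or near 0 were named after their values were seen. Wells of 1 line were treated in duplicate, so p-values measure the spread between these 2 samples, which may be technical. The median squared difference between replicates was 1.55 to 1.77 times that of sampling noise. Alternatives were library totals, DESeq2 size factors and its Wald test (1.42.0), other filters, a bias-adjusted edgeR test, removal of *Gm42418*, a replicate block and leaving out each library.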

Additional observations from a re-analysis of the deposited data

Results flagged for a closer look

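The responses to capmatinib differed between the lines for 8 of the 10 smooth muscle contractile genes, by the interaction term of the edgeR fit on all 8 libraries. The interaction, sgP53 minus NF1-MET on the log2 scale, was -1.62 for *Cnn1* (adjusted p = 1.16e-10), -1.57 for *Tagln* (7.76e-19), -1.53 for *Myl9* (1.12e-16) and -1.13 for *Lmod1* (3.90e-05). It was -0.998 for *Acta2* (1.39e-20), -0.69 for *Actg2* (1.62e-06), -0.22 for *Tpm2* (1.35e-04) and -0.17 for *Tpm1* (5.47e-06). With library totals *Tpm2* and *Tpm1* were not called (adjusted p = 0.746 and 0.876), which left 6 of the 10 genes, and 123 genes in all were called lower in place of 849. With TMM scaling 5.86% of all genes were called in this direction. The gain in CPM was not smaller in sgP53 for 6 of these 8 genes. Groups of 2 libraries are too small for a test of a single outlying sample. Leaving out sgP53 capmatinib replicate 2, in which *Gm42418* took 1.11% of counts against 10.02% in its partner, lowered the genes called in this direction from 849 to 509, and 8 of the 10 were called without it.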

How the results depend on the processing

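The called rises of the 10 genes with capmatinib kept their direction and their side of the threshold in both lines under every alternative that tested them, and the stricter filter dropped *Myh11*. Their median log2 fold change was 4.49 in NF1-MET and 3.57 in sgP53 with library totals and 4.47 and 3.20 with the stricter filter. Library totals moved the median of all genes to -0.18, -0.12, 0.06, 0.11 and 0.05 over the 5 comparisons, and the median of the 10 genes to 0.90 for the lines with vehicle, 0.24 with capmatinib and -0.77 for the interaction. With the stricter filter it was 1.09 with vehicle and -0.99 for the interaction. Leaving out a library gave medians of 0.77 to 1.04 with vehicle and -0.87 to -0.79 for the interaction.

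For the lines with capmatinib, library totals turned *Actg2* to 0.038, *Smtn* to 0.10, *Tpm1* to 0.087, *Srf* to 0.053, *Mrtfa* to 0.048 and *Mrtfb* to 0.072, none called. Leaving out a library gave -0.057 to 0.022 for *Smtn* and -0.11 to 0.027 for *Mrtfb* there. It gave -0.80 to 1.12 for *Myh11* with vehicle, 0.32 to 2.24 for the *Myh11* interaction and -0.011 to 0.073 for the *Trp53* interaction. With capmatinib 1 gene was called lower without *Gm42418* (*Tpm1*, -0.029, adjusted p = 0.0478), and 0 to 1 when a library was left out. With vehicle, *Smtn* was called in the fit on all 8 libraries (0.11, adjusted p = 0.0357), and without sgP53 vehicle replicate 1 its interaction was called (-0.20, adjusted p = 0.0196).

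Counts over all genes moved more. With library totals, 3260 genes rose with capmatinib in sgP53, 743 were lower in sgP53 with vehicle, 537 were higher and 129 lower with capmatinib, and the interaction was called higher for 192 and lower for 123. DESeq2's Wald test called 833 higher and 1100 lower with vehicle, 436 higher and 434 lower with capmatinib, and 461 lower for the interaction. Without a filter on low counts 515 were higher and 555 lower with capmatinib, and without *Gm42418* the interaction was called higher for 873. Leaving out a library gave 509 (sgP53 capmatinib replicate 2) to 738 lower for the interaction. The causes were not tested.

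Without division by length the shares of the smooth muscle genes, in the order NF1-MET vehicle, NF1-MET capmatinib, sgP53 vehicle and sgP53 capmatinib, were 6.60%, 41.8%, 12.6% and 44.8% of actins and 65.1%, 76.9%, 66.0% and 76.4% of tropomyosins. With capmatinib they were 7.14% and 8.93% of calponins, 0.061% and 0.17% of myosin heavy chains and 52.0% and 56.9% of transgelins, with 14.7% of transgelins in sgP53 vehicle. With library totals, chosen after the data were seen, the ratio of gains was 1.10 for *Acta2* and *Lmod1*, 1.18 for *Tagln*, 1.28 for *Myl9*, 1.33 for *Cnn1*, 1.00 for *Actg2*, 3.02 for *Myh11*, 1.01 for *Tpm1* and 1.13 for *Tpm2*.

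Samples that shared a replicate number in different groups deviated with correlations of -0.05 to 0.10 over 14497 genes, so they were taken to share only a number. A replicate block changed 1 call among the 10 genes, *Smtn* between the lines with vehicle (0.09, adjusted p = 0.0140). Depth limits *Myh11* with vehicle, where the libraries held 1 to 4 counts.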
